A study of Mus musculus with 8 samples.

Results

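The genes described here make or carry the sugar structures that selectins and other lectins bind on T cells. They are 9 genes of the 55536 in each count table, and all 9 were matched by symbol to a GRCm38 Ensembl identifier. Selplg encodes the protein scaffold PSGL-1, B4galt1, Gcnt1, St3gal1, St3gal4, St3gal6, Fut4 and Fut7 encode enzymes that build or cap its glycans, and St6gal1 encodes an enzyme that caps N-glycans with a differently linked sialic acid. The genes were chosen on values of this same comparison, so the log2 fold changes and adjusted p-values below describe them and are not independent evidence. Each value comes from a fit over all tested genes.

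The RNA was extracted as total RNA from OT-1 CD8+ T cells, all of which bear one transgenic receptor that sees SIINFEKL, a peptide of ovalbumin. By the study's methods the donors were C57BL/6 mice on a Rag-1KO background, in both groups, and the cells were taken from lymph nodes. All cells were cultured with 100 nM SIINFEKL for 2 days, washed and then kept for 2 days in 20 ng/ml IL-2. The 4 GC7 libraries came from cells given 10 µM GC7 during the IL-2 culture, and the 4 Mock libraries from cells given the acetic acid vehicle. GC7 is a spermidine derivative that blocks DHPS, the enzyme that begins the hypusination of the translation factor eIF5a. The comparison addresses which RNAs differ between cells given GC7 and cells given vehicle. Because one drug was used, an effect of GC7 on DHPS and any other effect of it cannot be told apart here. The study found that GC7-treated cells differed from Dhps and Dohh knockout cells and inferred off-target effects of the drug.

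Selectins on endothelium and platelets catch circulating leukocytes by binding sialyl Lewis x, a sialylated and fucosylated sugar cap, carried on scaffolds such as PSGL-1. On an O-glycan, core 1 is the shared starting point. Gcnt1 branches it to core 2, B4galt1 adds galactose to make N-acetyllactosamine, a 2,3-sialyltransferase adds sialic acid, and Fut7 or Fut4 adds fucose. St3gal1 acts on core 1 itself and competes with Gcnt1 for it. St6gal1 places sialic acid in the 2,6 linkage on N-glycans, a cap that the B cell lectin CD22 recognises. Activated CD8+ T cells are known to switch on Gcnt1 and Fut7 as they become effector cells able to enter inflamed tissue.

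Total counts lay between 17528776 and 25284730 per library. Cd3e, Cd3d, Cd3g, Cd8a and Cd8b1 were high in every library, and the 7 CD8 T cell markers summed to between 6665 and 8031 CPM in Mock and between 4559 and 6099 CPM in GC7. The largest part of that sum in every library was Gzmb, which encodes granzyme B (from 3968 to 4817 CPM in Mock and from 1901 to 3440 CPM in GC7). Of the 7 markers 4 fell at an edgeR FDR under 0.01, and Cd8a rose (703 to 978 CPM on average, log2 fold change 0.48, adjusted p = 3.4e-05). Over all tested genes 23.5% fell and 23.0% rose at that FDR. Cd4 was at most 0.410 CPM, the 3 CD4 T cell markers summed to at most 2.43 CPM, and Ms4a1, Siglech, Col3a1, Cdh5 and Ccl21a had no count in any library. The summed level of the 4 B cell markers ran from 7.02 to 10.1 CPM in Mock and from 4.63 to 5.93 CPM in GC7, that of the 8 myeloid and dendritic cell markers from 12.6 to 16.6 CPM and from 6.87 to 10.1 CPM, and that of the 6 stromal and endothelial markers, nearly all Pecam1, from 51.5 to 56.2 CPM and from 30.3 to 32.3 CPM. Eomes, listed here as an NK cell marker, was also measured by the study in its CD8+ T cells. The 3 NK cell markers, mostly Eomes, summed to 1.96 to 2.67 CPM in Mock and 1.90 to 3.19 CPM in GC7. Their part in the results was not tested. Mock replicate 2 stood apart from the other Mock libraries: it had the highest Mock value of 4 of the 9 genes and the lowest of the other 5, so the counts below are also given without it. Over all tested genes, Mock replicate 2 differed from the other Mock libraries with a chi-square per degree of freedom of 32.2 to 35.6. Among those 3 the value was 4.52 to 8.76. GC7 replicate 3 differed from the other GC7 libraries with 14.0 to 22.9, beside 2.60 to 6.69.

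Levels are CPM, counts scaled to a common total per library, with TMM factors, a scaling that assumes that most genes do not change. A gene was tested if it passed 3 CPM in at least 4 libraries, which 11189 genes did. All 9 genes described here passed, and each was above 3 CPM in all 8 libraries, with no count under 127. Calls used edgeR's quasi-likelihood F test with Benjamini-Hochberg adjustment (FDR) under 0.01, with or without a fold change over 2. By that rule 7 of the 9 genes fell with GC7, against a background of 23.5% of all tested genes, and 2 of them, Fut7 and St6gal1, fell by over 2-fold, against 5.31%. No gene of the 9 was called higher, against 23.0% of all tested genes (3.17% by over 2-fold). At an unadjusted p under 0.05, 2 of the 9 were higher, and DESeq2 and limma-voom also called 0 higher. In bulk RNA, fewer cells that express a gene and less RNA per cell cannot be told apart. The median log2 fold change of the 9 was -0.70, beside 0.02 over all tested genes. Without Mock replicate 2, 7 of the 9 genes were lower, 3 by over 2-fold, and 1 was higher. That fit called 2845 of all tested genes lower, 568 by over 2-fold, and 2859 higher. The main fit called 2635 lower, 594 by over 2-fold, and 2579 higher. Without GC7 replicate 3, 7 were lower, 2 by over 2-fold, and 0 higher.

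**Figure D1:**
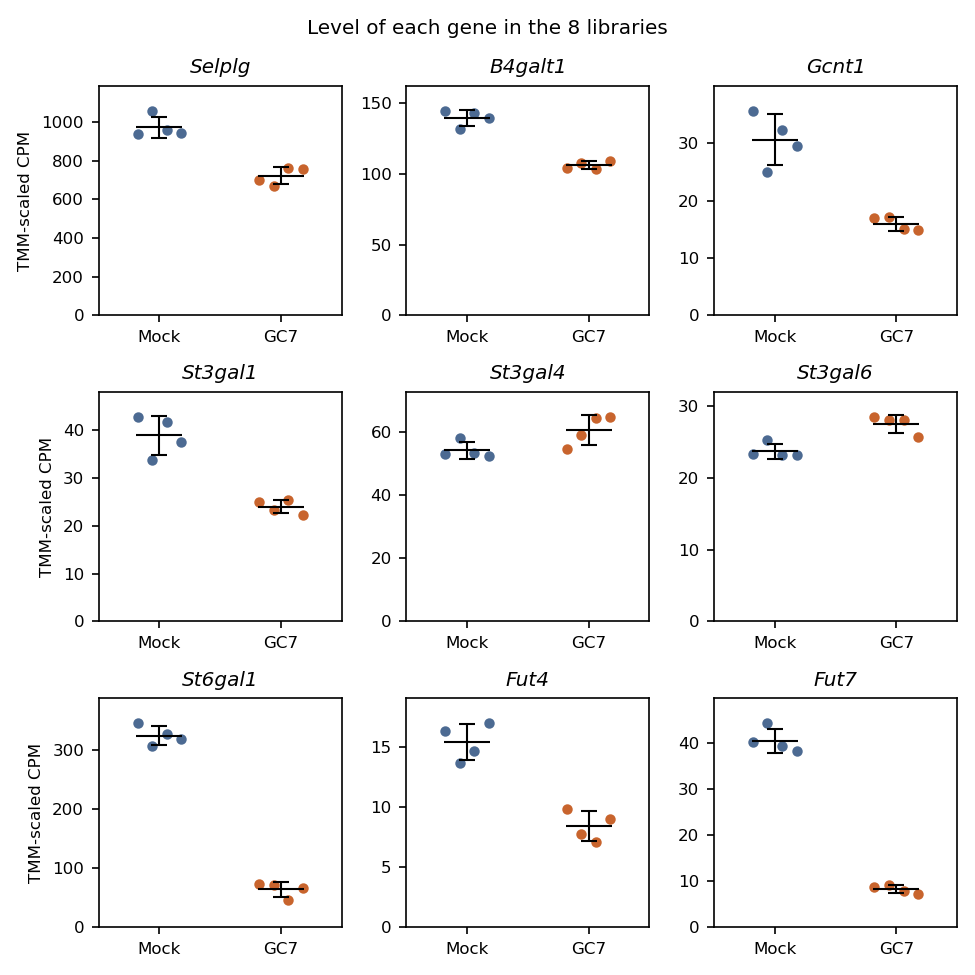
TMM-scaled CPM (vertical axes, from 0) of the 9 genes in each of the 4 Mock and 4 GC7 libraries (points), with the mean and SD (bars). For 7 genes the Mock libraries all lie above the GC7 libraries, for St3gal6 they lie below, and for St3gal4 the groups overlap.

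The fucosyltransferases act last in this pathway. Fut7 adds fucose to already sialylated chains and so completes sialyl Lewis x. It stood at 40.2, 44.2, 39.2 and 38.1 CPM in the Mock libraries and at 8.86, 9.24, 7.81 and 7.27 CPM with GC7. The lowest Mock library was far above the highest GC7 library. The log2 fold change was -2.29 (SE 0.092, adjusted p = 1.7e-09), a mean level 4.87-fold higher in Mock, and 139 of the 11189 tested genes, Fut7 included, had a log2 fold change as low or lower. Fut4, a second 1,3-fucosyltransferase that can act on the same chains, was at 16.4, 13.7, 14.7 and 17.0 CPM in Mock and 9.88, 7.78, 7.09 and 9.06 CPM with GC7. All Mock values were above all GC7 values, and the log2 fold change was -0.86 (SE 0.118, adjusted p = 5.4e-05).

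The bases upstream of Fut7 and St6gal1, the 2 genes that fell most, are shown because these genes' RNA levels are the ones the account turns on. They are 250 bases before a RefSeq start on the coding strand of GRCm38.p6, outside annotated exons, and the counts do not tell apart transcripts from the different starts. The Fut7 window shown is chr2:25422992-25423241 on the plus strand, and the 3 St6gal1 windows are chr16:23224490-23224739, chr16:23225771-23226020 and chr16:23290220-23290469 on the plus strand. The window of another Fut7 start, chr2:25423444-25423693, lies wholly within annotated exons and is not shown.
Fut7 start 1: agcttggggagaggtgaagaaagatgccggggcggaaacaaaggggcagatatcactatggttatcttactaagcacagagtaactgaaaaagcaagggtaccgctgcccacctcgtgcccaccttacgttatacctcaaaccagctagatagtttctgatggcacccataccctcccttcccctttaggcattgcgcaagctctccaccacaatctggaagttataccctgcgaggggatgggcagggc
St6gal1 start 1: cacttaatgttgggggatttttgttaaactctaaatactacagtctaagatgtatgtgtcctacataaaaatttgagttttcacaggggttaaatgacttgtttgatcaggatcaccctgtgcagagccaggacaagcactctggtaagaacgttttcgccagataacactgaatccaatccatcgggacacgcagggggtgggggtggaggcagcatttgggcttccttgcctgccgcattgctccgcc
St6gal1 start 2: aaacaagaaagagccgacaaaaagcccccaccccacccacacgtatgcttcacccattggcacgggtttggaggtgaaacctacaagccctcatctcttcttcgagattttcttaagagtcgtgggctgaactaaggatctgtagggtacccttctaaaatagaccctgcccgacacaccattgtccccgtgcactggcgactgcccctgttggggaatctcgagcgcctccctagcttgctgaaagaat
St6gal1 start 3: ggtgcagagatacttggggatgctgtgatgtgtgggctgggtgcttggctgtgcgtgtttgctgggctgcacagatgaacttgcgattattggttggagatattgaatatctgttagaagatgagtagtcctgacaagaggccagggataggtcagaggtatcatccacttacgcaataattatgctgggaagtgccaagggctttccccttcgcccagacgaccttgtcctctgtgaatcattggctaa
Both strands were searched for the T-box core AGGTGT and the STAT core TTCNNNGAA, letters typical of factor families active in effector T cells. Neither string is in these 4 windows, so no letter is in capitals. Across the 13 windows found for 7 of the 9 genes, 1 string was found, a STAT core in B4galt1. Of all windows of the same length in the RefSeq promoter table, 11.8% held the T-box core and 7.0% the STAT core. An absent string says only that these letters are not in this window.

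St6gal1 had the largest fall of the 9 genes. Its Mock levels were 344, 306, 326 and 317 CPM and its GC7 levels 74.0, 71.2, 46.0 and 65.8 CPM. The groups were far apart, and GC7 replicate 3 was the lowest library. Without it the log2 fold change was -2.20. The log2 fold change was -2.33 (SE 0.123, adjusted p = 1.7e-08), which is a 5.03-fold difference, and 133 tested genes, St6gal1 included, had a log2 fold change as low or lower. An opposite-strand transcript, BC106179, overlaps 200 exon bases of St6gal1 and had at most 4 counts in any library.

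The 2,3-sialyltransferases did not move together. St3gal1, which caps core 1, was at 42.6, 33.8, 41.7 and 37.4 CPM in Mock and 25.0, 23.3, 25.3 and 22.3 CPM with GC7. Its groups did not overlap, and its log2 fold change was -0.70 (SE 0.086, adjusted p = 2.3e-05). St3gal4, which sialylates the N-acetyllactosamine chains of selectin ligands, was at 52.9, 58.0, 53.3 and 52.3 CPM in Mock and 54.5, 59.1, 64.2 and 64.5 CPM with GC7. Its groups overlapped, and its log2 fold change of 0.16 (SE 0.071, 95% interval 0.01 to 0.32) had an adjusted p of 0.0661. St3gal6, which shares that acceptor, was at 23.3, 25.3, 23.2 and 23.2 CPM in Mock and 28.4, 28.1, 28.1 and 25.6 CPM with GC7. The ranges did not overlap, but its log2 fold change of 0.21 (SE 0.069, 95% interval 0.06 to 0.37) had an adjusted p of 0.0183 and was not called. St3gal6 was called when Mock replicate 2 was left out (log2 fold change 0.25, adjusted p = 0.00534). Both genes were called higher when libraries were scaled by their totals alone, at log2 fold changes of 0.26 and 0.31, a scaling under which the median of all tested genes moved from 0.02 to 0.11. In these 2 genes the counts share exon bases with opposite-strand genes (412 bases of 4930581F22Rik for St3gal4 and 1603 of Dcbld2 for St3gal6), and the strand setting of the counting is not given in the sources used here. Of the 9 genes, 7 were lower and 1 was higher with no overlap between groups, and 27.5% and 28.1% of all tested genes met those conditions.

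**Figure D2:**
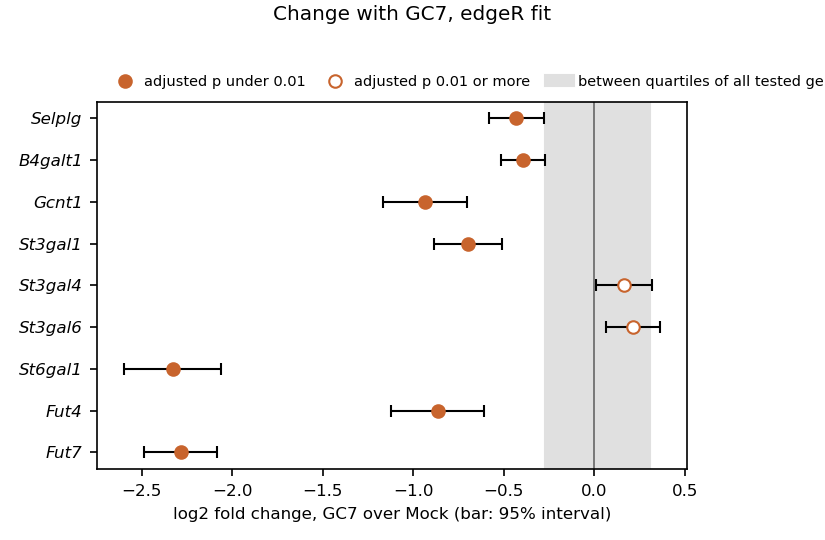
Log2 fold change of GC7 over Mock (horizontal axis) for each gene, with its 95% interval (bars) from the edgeR fit, filled where the adjusted p is under 0.01, and the range between the quartiles of all tested genes (grey). Fut7 at -2.29 and St6gal1 at -2.33 lie far to the left of the rest, and St3gal4 and St3gal6 lie within the grey band.

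The branching and extension enzymes fell by less than 2-fold. Gcnt1, the core 2 branching enzyme, was at 35.5, 25.0, 32.3 and 29.5 CPM in Mock and 17.0, 17.1, 15.0 and 14.8 CPM with GC7. Mock replicate 2 was the lowest of its group and still above every GC7 library. The log2 fold change was -0.93 (SE 0.107, adjusted p = 1.3e-05), and it was -1.02 without Mock replicate 2. B4galt1 was at 144, 132, 143 and 139 CPM in Mock and 104, 107, 103 and 109 CPM with GC7, a narrow spread within each group. Its log2 fold change was -0.39 (SE 0.055, adjusted p = 6.9e-05).

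Selplg, the scaffold, was the most abundant of the 9. It stood at 938, 1054, 958 and 941 CPM in Mock and at 699, 671, 761 and 756 CPM with GC7. Every Mock library exceeded every GC7 library, and the log2 fold change was -0.43 (SE 0.070, adjusted p = 0.00021). A stretch of about 200 bases of its exons is between 90.1% and 93.6% identical to 10 other genes. That number holds at cutoffs of 200 bases and 90% identity, and shorter or less similar matches were not listed. The Selplg count is uncertain to the extent that shared reads were counted.

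Per kb of exon, the order of levels differed between the groups. In Mock it ran from Selplg (228 ± 12.9 CPM per kb, SD, n = 4) through St6gal1 (65.8 ± 3.27), B4galt1 (32.9 ± 1.29), St3gal4 (18.5 ± 0.895), Fut7 (17.2 ± 1.12), St3gal1 (5.67 ± 0.593), Gcnt1 (5.31 ± 0.771) and St3gal6 (3.85 ± 0.169) to Fut4 (3.79 ± 0.366). Among neighbours in that order, the libraries of St3gal4 and Fut7, of St3gal1 and Gcnt1 and of St3gal6 and Fut4 overlapped. With GC7 it ran from Selplg (169 ± 10.2 CPM per kb) through B4galt1 (25.1 ± 0.648), St3gal4 (20.7 ± 1.62), St6gal1 (13.1 ± 2.57), St3gal6 (4.46 ± 0.208), Fut7 (3.52 ± 0.388), St3gal1 (3.50 ± 0.209) and Gcnt1 (2.77 ± 0.212) to Fut4 (2.08 ± 0.308). There the only neighbours that overlapped were Fut7 and St3gal1. St6gal1 thus lay above B4galt1 and St3gal4 in Mock and below both with GC7, and Fut7 went from a level near St3gal4 to one near St3gal1.

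Ratios between the 9 genes were then read within each library, which removes the scaling between libraries. Fut4 had 0.235, 0.180, 0.217 and 0.258 times the Fut7 level per kb in the Mock libraries and 0.645, 0.487, 0.524 and 0.721 times with GC7. Fut7 stayed the more abundant of the pair in all 8 libraries. St6gal1 had 2.49, 2.16, 2.36 and 2.38 times the summed level per kb of St3gal1, St3gal4 and St3gal6 in Mock and 0.560, 0.514, 0.310 and 0.454 times with GC7, so it was the larger in every Mock library and the smaller in every GC7 library. Gcnt1 had 0.992, 0.881, 0.921 and 0.936 times the St3gal1 level in Mock and 0.808, 0.869, 0.706 and 0.792 times with GC7. For this pair, which competes for core 1, the group means were closer than for the other ratios. Every GC7 library still lay below every Mock library. The Fut7 level per kb was 0.0754 ± 0.0019 of the Selplg level in Mock and 0.0210 ± 0.0036 in GC7 (SD, n = 4). These ratios restate the levels that chose the genes and carry no test.

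**Figure D3:**
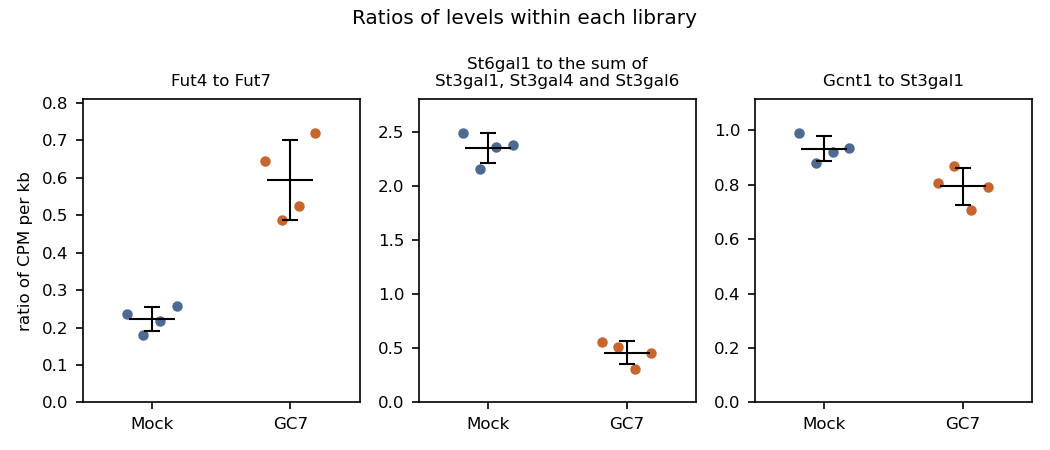
Ratios of levels per kb within each library (vertical axes, from 0), with the 4 Mock and 4 GC7 libraries as points and the mean and SD as bars. The mean of Fut4 to Fut7 is 0.222 in Mock and 0.594 in GC7, that of St6gal1 to the sum of the 3 St3gal genes 2.35 and 0.459, and that of Gcnt1 to St3gal1 0.933 and 0.794.

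Seen as a family, the 11 sialyltransferases that passed the filter, 4 of them among the 9 genes and 7 others, summed to 116 ± 3.62 CPM per kb in Mock and 66.7 ± 2.24 CPM per kb in GC7 (SD, n = 4). St6gal1 made up 56.6% ± 1.19 of that sum in Mock and 19.5% ± 3.30 in GC7. St3gal4 made up 16.0% ± 1.11 and 31.1% ± 3.31, and it was the largest share in all 4 GC7 libraries. St6galnac4, which adds sialic acid to the GalNAc of sialylated core 1, went from 3.73% ± 0.191 to 11.0% ± 1.05. A share moves when another member of the sum moves, so the larger St3gal4 share came without a called change in its level.

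**Figure D4:**
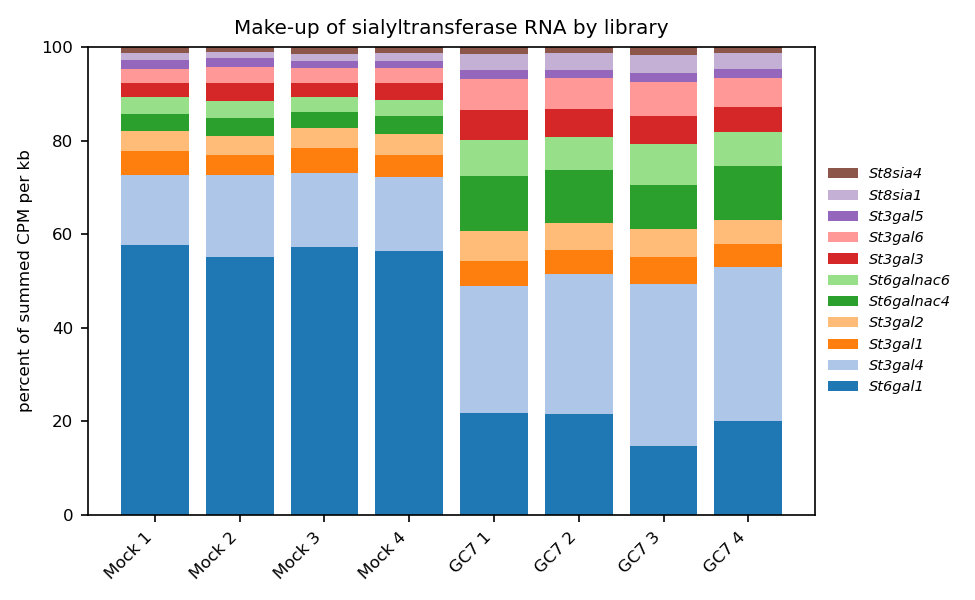
Share of each of 11 sialyltransferase genes in their summed CPM per kb (vertical axis, percent), by library. St6gal1 takes 55.0% to 57.7% in the Mock libraries and 14.7% to 21.9% in the GC7 libraries.

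The rest of the pathway was described from 8 lists of 112 genes, of which 71 passed the filter. Among these 22 fell and 18 rose at FDR under 0.01, 8 and 2 of them by over 2-fold. Over all tested genes the shares were the 23.5%, 23.0%, 5.31% and 3.17% given above. Man1c1 among the 8 and B4galt4 among the 2 passed the filter only through the group where they were high. Their differences were thus built into these counts. Of the 7 other sialyltransferases tested, 3 fell and 3 rose, with a median log2 fold change of 0.04. St6galnac4 rose (28.1 ± 1.15 to 47.7 ± 5.98 CPM, log2 fold change 0.77, adjusted p = 1.6e-05) and St8sia4, a polysialyltransferase, fell (30.7 ± 2.98 to 19.1 ± 2.27 CPM, -0.68, adjusted p = 9.1e-05).

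In sialic acid supply and removal, 2 of the 11 tested genes fell, both by over 2-fold, and 3 rose. Cmas, which activates sialic acid to CMP-sialic acid for all sialyltransferases, was at 119, 130, 119 and 118 CPM in Mock and 59.6, 59.8, 59.9 and 62.2 CPM with GC7. The groups were well separated, with a log2 fold change of -1.01 (SE 0.058, adjusted p = 3.2e-08), which was under 2-fold without Mock replicate 2 (-0.97) and with library totals (-0.91). Cmah, which converts one form of CMP-sialic acid to another, fell too (111 ± 13.5 to 48.2 ± 6.15 CPM, -1.20, adjusted p = 1.2e-06). Slc35a1, which carries CMP-sialic acid into the Golgi, rose (12.9 ± 1.36 to 22.9 ± 0.580 CPM, 0.83, adjusted p = 5.9e-06). Activation and transport of the same donor therefore changed in opposite directions in RNA.

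For fucose, 5 of 9 tested genes fell and 1 rose. Fut8, which adds the core fucose of N-glycans, fell from 66.9 ± 1.79 to 28.5 ± 3.58 CPM (-1.23, adjusted p = 1.7e-07), and Slc35c1, the GDP-fucose transporter, from 64.9 ± 2.94 to 45.4 ± 3.91 CPM (-0.52, adjusted p = 7.3e-05). Gmds, which starts the synthesis of GDP-fucose from GDP-mannose, was at 27.9 ± 2.85 CPM in Mock and 27.9 ± 0.399 CPM in GC7 (adjusted p = 0.967).

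Among O-glycan initiation and core genes, 4 of 12 fell and 1 rose. Those with the lowest adjusted p were Galnt6 (197 ± 9.27 to 122 ± 4.96 CPM, -0.69, adjusted p = 1.1e-06) and Galnt12 (46.3 ± 1.08 to 28.3 ± 2.76 CPM, -0.71, adjusted p = 7.4e-06), which both belong to the family that starts O-glycans by adding GalNAc. In N-acetyllactosamine extension, 2 of 10 fell, B3gnt9 (-1.20, adjusted p = 8.4e-06) and B3gnt3, which extends core 1 (-1.01, adjusted p = 7.3e-07). B3gnt3 was under 2-fold with library totals (-0.91) and without Mock replicate 2, Mock replicate 4 or GC7 replicate 3 (-0.999 to -0.978). The 2 that rose included B4galt4, a relative of B4galt1, at 1.67 ± 0.433 CPM in Mock and 6.81 ± 0.611 CPM in GC7 (2.03, adjusted p = 9.4e-07). B4galt4 passed the filter only through the GC7 libraries, so a difference was built into its passing.

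N-glycan branching genes were split, with 2 of 11 lower and 4 higher. Man1c1, a Golgi mannosidase, fell from 9.30 ± 0.966 to 1.26 ± 0.272 CPM (-2.86, adjusted p = 2.9e-08), and Mgat3, which adds the bisecting GlcNAc, from 12.3 ± 0.661 to 3.59 ± 0.701 CPM (-1.77, adjusted p = 3.5e-07). Man1c1 was under 3 CPM in every GC7 library and passed the filter only through the Mock libraries, so a fall was built into its passing. Mgat3 was over 3 CPM in every GC7 library except replicate 3 (2.73 CPM). Mgat5, whose branch carries long N-acetyllactosamine chains, rose from 10.5 ± 1.61 to 30.7 ± 3.02 CPM (1.55, adjusted p = 3e-07).

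Sulphation matters to PSGL-1 because sulphated tyrosines near its tip take part in P-selectin binding. Of 6 tested genes 3 fell and 2 rose. Papss1, which makes the sulphate donor, fell (70.5 ± 2.69 to 31.5 ± 1.85 CPM, -1.16, adjusted p = 2.9e-08), as did the tyrosine sulphotransferase Tpst2 (101 ± 7.94 to 53.4 ± 3.64 CPM, -0.91, adjusted p = 6.4e-07). Its relative Tpst1 was at 11.8, 12.0, 10.2 and 9.87 CPM in Mock and 8.81, 10.0, 7.87 and 9.86 CPM with GC7, so the groups overlapped (-0.26, adjusted p = 0.0617).

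Of 5 other selectin ligand scaffolds tested, 1 fell and 2 rose. Spn, which encodes CD43, fell (339 ± 6.39 to 218 ± 19.7 CPM, -0.64, adjusted p = 8.4e-06), and Lamp1 rose (74.6 ± 2.47 to 101 ± 5.13 CPM, 0.43, adjusted p = 5.9e-05).

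**Figure D5:**
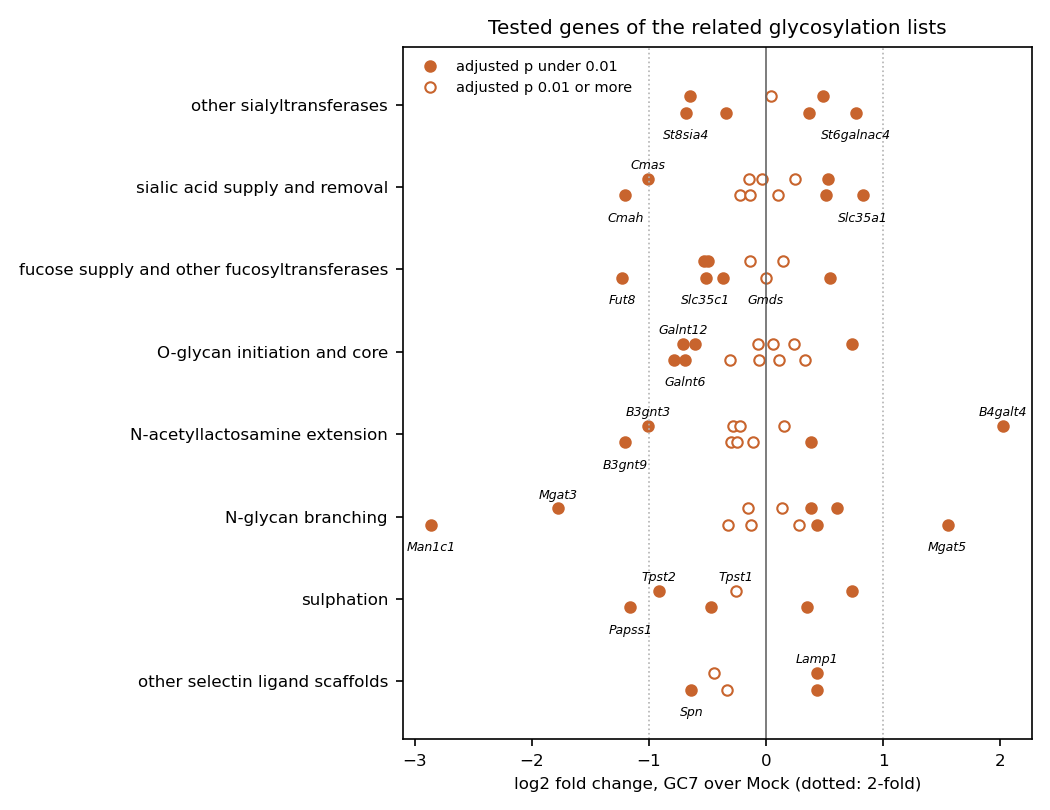
Log2 fold change of GC7 over Mock (horizontal axis) for the 71 tested genes of 8 related lists, filled where the adjusted p is under 0.01, with named genes labelled and dotted lines at 2-fold. Genes lie on both sides of 0 in most lists, with Man1c1 at -2.86 and B4galt4 at 2.03 farthest out.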

How the data were processed

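RNA extracted as total RNA was sequenced in 4 Mock and 4 GC7 libraries, grouped by the sample labels. The study's text calls the assay mRNA-seq. After trimming with cutadapt, the authors aligned the read pairs to GRCm38 with STAR. They deposited raw counts for each Ensembl gene from featureCounts, 1 table per library, unnormalised and unpooled. The strand setting and the treatment of reads with several matches are not given in the sources used here. Nothing in the labels ties a replicate to a separate animal, and the study's methods call them biological replicates.

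From these counts, genes over 3 CPM in at least 4 libraries (11189) were tested with edgeR (version 4.0.16, R version 4.3.3): TMM factors, group as the only term, quasi-likelihood F test, Benjamini-Hochberg adjustment, FDR under 0.01. The SE is the absolute log2 fold change over the square root of F. At the filter a library held between 52.6 and 75.9 counts. The test was also run on simulated counts in which few genes changed, as many up as down. Far more genes were called in these data, so that run does not check the scaling used here. Levels per kb used the union of exons. Sequences similar to exons of the 9 genes (200 bases, 90% identity) were found with BLAST (version 2.17.0), and promoter sequence came from RefSeq (GRCm38.p6). A planned description of protein sequences was not used here. Other tools were limma (version 3.58.1), DESeq2 (version 1.42.0), matplotlib 3.10.9, scipy 1.17.1, pandas 2.3.3 and numpy 2.4.6 in Python 3.11.15.

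The 9 genes, the lists, the markers and the tests were chosen with earlier results of these data known. Named beside the 9 genes are, per list, up to 4 genes past FDR 0.01 and 2-fold with the largest change, or else the 2 with the lowest adjusted p, and Cmas, Slc35a1, Slc35c1, Gmds, Tpst1 and Tpst2 whatever their values. A planned list and a gene of another list are not reported here. Alternatives were RLE factors, library totals, TMM without mitochondrially encoded genes, no filter, filterByExpr, DESeq2, limma-voom, the replicate number as a block, and each library left out in turn.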

Additional observations from a re-analysis of the deposited data

Results flagged for a closer look

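The spread of 4 libraries was examined for the 30 named genes and 5 ratios, in Mock and GC7 separately, which makes 70 groups of 4. A library was singled out where its gap to the nearest other library, divided by the whole range, passed Dixon's critical value at the 95% level. This held in 5 groups, where chance gives about 1 in 20, or 3.5. Mock replicate 2 accounted for 3 of them, being the highest Mock library for St3gal6 (ratio 0.942), Selplg (0.832) and Cmas (0.871). GC7 replicate 4 accounted for 2, being the lowest GC7 library for St3gal6 (0.871) and the highest for Cmas (0.867). Without Mock replicate 2 the log2 fold change was 0.25 for St3gal6, -0.39 for Selplg and -0.97 for Cmas, the last then under 2-fold.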

How the results depend on the processing

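Across 16 alternatives, 8 of them leaving out 1 library, 474 of 480 log2 fold changes of the named genes kept their direction and their side of FDR 0.01. Of the 9 genes, 7 were lower in every alternative, and their log2 fold changes ranged from -2.35 to -2.19 for Fut7, from -2.41 to -2.20 for St6gal1, from -1.02 to -0.84 for Gcnt1, from -0.95 to -0.77 for Fut4, from -0.76 to -0.61 for St3gal1, from -0.46 to -0.34 for Selplg and from -0.42 to -0.30 for B4galt1. With library totals, St3gal4 and St3gal6 were called higher, which makes 2 of the 9 genes called higher in place of 0, and the split over all tested genes went from 2635 lower and 2579 higher to 2056 and 3346. Leaving out 1 library gave between 0 and 1 of the 9 genes higher, and the 1 was St3gal6 without Mock replicate 2. Gmds, with a log2 fold change near 0, changed sign with library totals (0.092), under the replicate block (0.00048) and without Mock replicate 2, with values from -0.040 to 0.073 when 1 library was left out, and was called in none of these. No filter (28350 genes tested) gave 1189 genes lower and 773 higher by over 2-fold, and filterByExpr (14517 genes) 1013 and 601. The main fit (11189 genes) gave 594 and 355. The reason for these differences was not tested.

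Replicate numbers were not found to pair the libraries: the correlations of deviations between same-numbered Mock and GC7 libraries ranged from -0.18 to 0.27, and not every library correlated best with its own number. A fit with the replicate block called 2485 genes lower and 2382 higher, and 7 of the 9 genes lower. Mitochondrially encoded mRNA took 1.67% to 1.78% of counts in Mock and 0.118% to 0.146% in GC7, and leaving those genes out of the scaling changed no call of the 9. RNA levels do not measure enzyme activity or cell surface glycans.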
